A study of Arabidopsis thaliana with 12 samples.

Results

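The comparison is of pifq with wild type (WT, Col-0) Arabidopsis seedlings in continuous white light (LL), over 6 of the 12 arrays of the study, 3 pifq LL and 3 WT LL. Its members are these 6 arrays, taken by their genotype and light labels, and every probe set except the controls was tested. All seedlings were whole, 3 days old, grown on medium without sucrose, and spent 2 days in short days (SD, 8 h of white light, at 85 µmol m-2 s-1, in each 24 h, with the other 16 h dark). The LL seedlings then stayed in the same light for 1 more day and were collected at 24 h of it, the end of the subjective night, whereas the other 6 arrays (3 WT SD, 3 pifq SD) come from seedlings kept in SD and collected at the end of the night. The mutant pifq is 1 line, mutated in the genes PIF1, PIF3, PIF4 and PIF5, so the effects of the single genes, and of anything else particular to this line, cannot be told apart. The samples of a group are biological replicates by their labels, which name no batch.

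The PHYTOCHROME-INTERACTING FACTORS (PIFs) are basic helix-loop-helix (bHLH) transcription factors that bind G-box motifs and promote hypocotyl growth. Phytochromes activated by light bind the PIFs and lead to their degradation, so that the proteins build up in darkness and stay low in continuous light. The LL comparison asks how the transcriptome of the mutant differs from that of WT in a condition in which the PIF proteins are low, and the SD comparison gives the same genotypes at the end of a long night.

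Values are log2 signals from AraGene ST arrays, with a log2 fold change (FC) given as pifq minus WT, and an FC of 1 on this scale stands for a 2 fold difference in signal. A probe set was called when the adjusted p of limma was under 0.05 over all 38310 probe sets tested and the difference was at least 1.5 fold. In LL 7 probe sets were called (0.0183%), 4 of them higher in pifq (0.0104%) and 3 lower (0.00783%). In SD the same fit called 552 (1.44%), 229 higher (0.598%) and 323 lower (0.843%), a count that was 274 without pifq SD replicate 3, 279 without WT SD replicate 1 and 314 without WT SD replicate 3. The groups had 3 arrays each and this number limits the precision. The median standard error (SE) of a log2 FC was 0.206, and the median standard deviation within a group was 0.176 in WT LL, 0.230 in pifq LL, 0.219 in WT SD and 0.244 in pifq SD. The median log2 FC over all probe sets was 0.02 in LL and 0.03 in SD, and the array medians lay between 4.998 and 5.120. Pairs of arrays of 1 group correlated with an r of 0.965 to 0.983.

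The lower calls in LL were the mutated genes PIF3, PIF5 and PIF1. PIF3 (AT1G09530), which acts early in seedling de-etiolation, had log2 signals of 7.32, 7.10 and 7.17 in WT LL and of 3.74, 3.67 and 3.98 in pifq LL. Its log2 FC was -3.40 ± 0.20 (SE, n = 3 arrays per group, limma adjusted p = 7.81e-05), and no array of 1 genotype reached the range of the other. PIF5 (AT3G59060), a promoter of growth in SD and in shade, had 9.79, 9.995 and 9.71 in WT LL and 6.70, 6.41 and 6.22 in pifq LL. The log2 FC of PIF5 was -3.39 ± 0.25 (limma adjusted p = 0.000496). PIF1 (AT2G20180), a repressor of seed germination and of chlorophyll synthesis in the dark, had 8.31, 8.13 and 8.54 in WT LL. In pifq LL its signals were 6.13, 6.68 and 6.12, all below WT, and the log2 FC was -2.02 ± 0.19 (limma adjusted p = 0.00425).

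The transcripts of the mutated genes were thus present in WT in LL at signals near those of SD, since the WT SD minus WT LL differences were 0.48 for PIF3, 0.03 for PIF1 and -0.19 for PIF5. The genotype difference did not pass the test of a change between LL and SD for any of them (PIF3 0.65, adjusted p = 0.713, PIF5 0.35, adjusted p = 0.988, PIF1 -0.41, adjusted p = 0.917). PIF1 was no longer called when the fit held only the 6 LL arrays (adjusted p = 0.161). Where the probes lie relative to the mutations is not given in the sources used here, so the remaining signal in pifq cannot be read as intact transcript. PIF4 (AT2G43010) has no probe set with its name here and was not analysed.

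The higher calls in LL were QQS and 3 probe sets with no gene name here. QQS (AT3G30720, Qua-Quine Starch) is an orphan gene of Arabidopsis that is known to affect starch content. Its log2 signals were 4.03, 4.75 and 4.69 in WT LL and 9.02, 8.98 and 9.50 in pifq LL, which leaves a wide gap between the genotypes. The log2 FC was 4.68 ± 0.22 (SE, n = 3 arrays per group, limma adjusted p = 1.66e-05), and in SD it was 5.16 ± 0.22 (adjusted p = 3.08e-06). QQS differed between genotypes by a similar size in both light regimes, with a difference of LL minus SD of -0.48 that did not pass the test (adjusted p = 0.917). Its WT signals in LL and in SD lay below the array medians. Whether the low WT signal limits the size of these log2 FC was not tested.

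Probe set 13545569 had log2 signals of 6.99, 6.70 and 6.78 in WT LL and of 10.66, 10.77 and 10.59 in pifq LL. Its log2 FC was 3.85 ± 0.16 (limma adjusted p = 9.75e-06), and in SD it was 4.38. Probe sets 13545433 and 13545441 share all 12 values, so the 7 calls hold 6 distinct sets of values. Both had 5.14, 5.38 and 4.96 in WT LL and 7.62, 7.58 and 7.52 in pifq LL, a log2 FC of 2.41 ± 0.17 (limma adjusted p = 0.000299), and in SD 2.61. All arrays of pifq lay above all arrays of WT in LL for these probe sets.

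**Figure D1:**
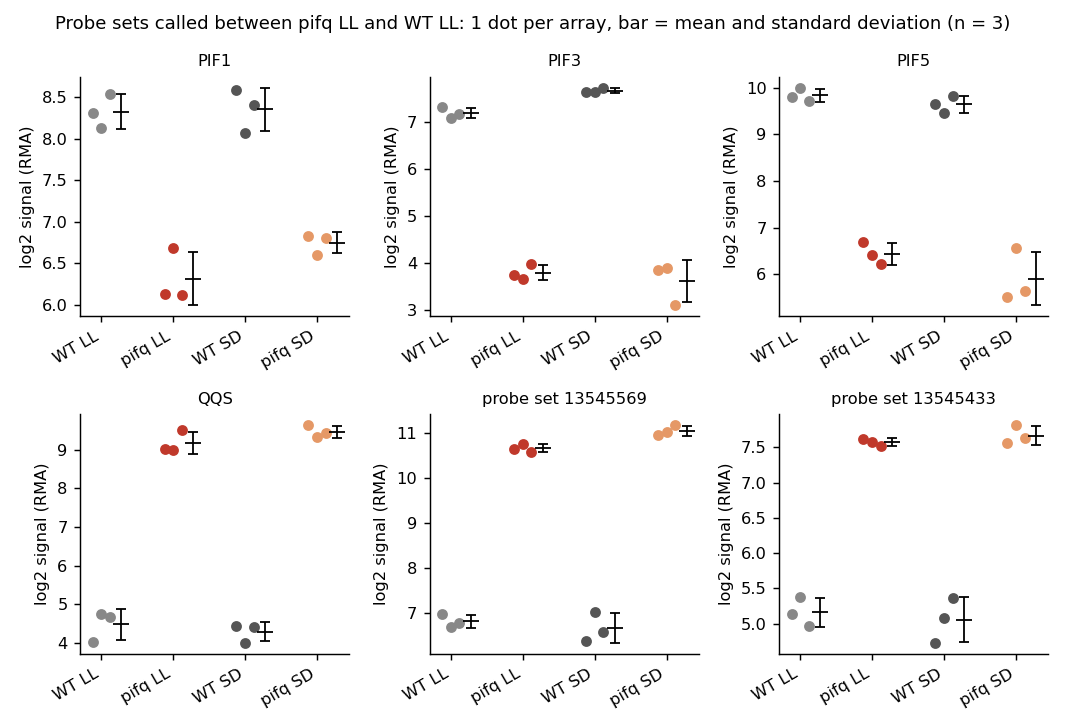
Log2 signal (RMA) of the probe sets called between pifq LL and WT LL, by group, with 1 dot per array and a bar for the mean and standard deviation of 3 arrays. The y axes differ between panels and do not start at 0. The plot shows both genotypes apart in LL and in SD, with PIF1, PIF3 and PIF5 lower and QQS and both unnamed values higher in pifq.

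All 7 probe sets called in LL were also called in SD in the same direction, which is 100% of the LL list and 1.27% of the SD list. The other 545 of the SD list were not called in LL. In the main fit the smallest adjusted p among probe sets not called in LL was 0.127. The last one called had 0.00425, so the list of this fit ends at a gap. The same 7 were called with no fold requirement, with a requirement of 2 fold, after median centring and after quantile normalization. The smallest called difference was 2.02 on the log2 scale and no other adjusted p was under 0.05. The fold settings therefore had to give the same list. The count was 11 or 19 when only probe sets with a mean log2 signal of at least 4 or 5 were tested, and 18 with an intensity trend and robust moderation of the variance. All 7 were in each of these longer lists. Of the LL calls, 9 of the 11, 10 of the 19 and 11 of the 18 were also called in SD in the same direction. The full overlap with SD thus did not hold in the longer lists, and the 7 include PIF1, PIF3 and PIF5, which are mutated by the design.

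In LL 2390 probe sets (6.24%) had an unadjusted limma p under 0.05, 1494 of them higher (3.90%) and 896 lower (2.34%) in pifq. With no genotype difference at all, a share of 0.05 would be expected to pass this threshold. The share of higher ones was 62.5%, and it was 52.9% after median centring, 56.1% after quantile normalization and 51.9% over probe sets with a mean log2 signal of at least 5. The pifq LL arrays did not overlap the WT LL arrays for 5103 probe sets (13.3%), 2971 with pifq higher (7.76%) and 2132 with pifq lower (5.57%). With no genotype difference, 3 arrays would lie apart from 3 others for a share of 0.1, so neither count gives a number of changed genes. A difference of at least 2 fold in LL was seen for 590 probe sets, of which 7 were called. Of these 590, 500 (84.7%) had a mean log2 signal under 5, against 49.5% of all probe sets, and 22 (3.73%) had a gene name, against 46.3%. Their median SE was 0.534 and 306 of them (51.9%) had the same sign in SD.

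Named genes with the smallest p among those not called include genes of amino acid metabolism, DNA repair, the cell cycle and the cell wall. ASN1 (AT3G47340), a glutamine-dependent asparagine synthetase known for its induction in the dark, had log2 signals of 10.69, 10.43 and 10.82 in WT LL and of 11.47, 11.48 and 11.43 in pifq LL. The genotypes did not overlap and the log2 FC was 0.81 ± 0.13 (limma adjusted p = 0.153), while in SD it was 0.02 ± 0.13. UVR3 (AT3G15620), a photolyase that repairs DNA damage from ultraviolet light, had 6.88, 6.76 and 6.79 in WT LL and 7.74, 7.54 and 7.47 in pifq LL. UVR3 had a log2 FC of 0.78 ± 0.12 in LL (adjusted p = 0.165) and 0.46 in SD. AT3G59080, an aspartyl protease family gene, had 7.32, 7.30 and 7.27 in WT LL and 8.07, 8.13 and 8.28 in pifq LL. That is a log2 FC of 0.86 ± 0.16 in LL (adjusted p = 0.283) and 1.25 in SD, where AT3G59080 was called, and the gene lies 2 genes from PIF5 in gene order. AT3G22750, a protein kinase family gene, was also called in SD (0.83) and had 0.64 ± 0.12 in LL.

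The log2 FC in LL of the other higher genes by the same rule ran from 0.53 for AT1G09280 to 1.16 for AT1G08120. They include AT4G27450, an aluminium-induced family gene, with 0.69 ± 0.12, and AT1G56220, a dormancy and auxin associated family gene, with 0.55 ± 0.11. None of these was called in SD. AT1G08120 had log2 signals of 2.198, 2.70 and 2.54 in WT LL and of 3.70, 3.53 and 3.67 in pifq LL, which is low on the scale of the arrays. For ASN1, UVR3, AT1G09280, AT4G27450, AT1G56220, AT3G15630, AT5G23380 and AT1G19540 both SD groups lay above both LL groups, and pifq LL lay above WT LL on every array. The difference of WT SD from WT LL was 2.02 for ASN1, 2.40 for AT4G27450 and 2.98 for AT1G19540, a comparison that shares the WT LL arrays with the one described here.

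Among the lower ones CYCD1;1 (AT1G70210), a D-type cyclin of cell cycle entry, had log2 signals of 7.28, 7.20 and 7.18 in WT LL and of 6.43, 6.43 and 6.59 in pifq LL. Its log2 FC was -0.74 ± 0.10 in LL (limma adjusted p = 0.127) and -1.91 ± 0.10 in SD, where it was called. GH9B8 (AT2G32990), a glycosyl hydrolase of family 9, had 7.49, 7.24 and 7.44 in WT LL and 6.55, 6.28 and 6.55 in pifq LL. The log2 FC of GH9B8 was -0.93 ± 0.14 in LL (adjusted p = 0.142) and -1.24 in SD, where it was called. NRT1.1 (AT1G12110), a nitrate transporter and sensor, had 10.23, 10.16 and 10.07 in WT LL and 9.39, 9.61 and 9.53 in pifq LL. NRT1.1 had a log2 FC of -0.64 ± 0.12 in LL (adjusted p = 0.358) and -0.66 in SD (adjusted p = 0.0238), so the size was similar and the SD value was called.

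LTP3 (AT5G59320), a lipid transfer protein, had 5.28, 5.11 and 4.80 in WT LL and 3.65, 3.90 and 3.31 in pifq LL. LTP3 had a log2 FC of -1.45 ± 0.22 in LL (limma adjusted p = 0.144) and -0.03 in SD. Its pifq LL signals lay below the array medians. AT4G20390, a CASP-like membrane protein, had -0.87 ± 0.14 in LL, AT1G49960, a xanthine and uracil permease family gene, -0.95 ± 0.16, and AT2G23540, a GDSL lipase family gene, -1.03 ± 0.17. None of these genes was called in SD. For AT4G20390, AT1G49960 and AT2G23540 both genotypes had lower signals in SD than in LL on every array. AT3G13980 (-0.89) and AT4G00910 (-1.02), an aluminium-activated malate transporter family gene, were called in SD with -1.47 and -1.11. With the trend and robust moderation ASN1, UVR3, AT5G23380, AT4G27450, CYCD1;1, GH9B8, AT3G13980, AT4G20390 and NRT1.1 were called in LL (limma adjusted p = 0.01 for ASN1 to 0.0459 for NRT1.1).

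**Figure D2:**
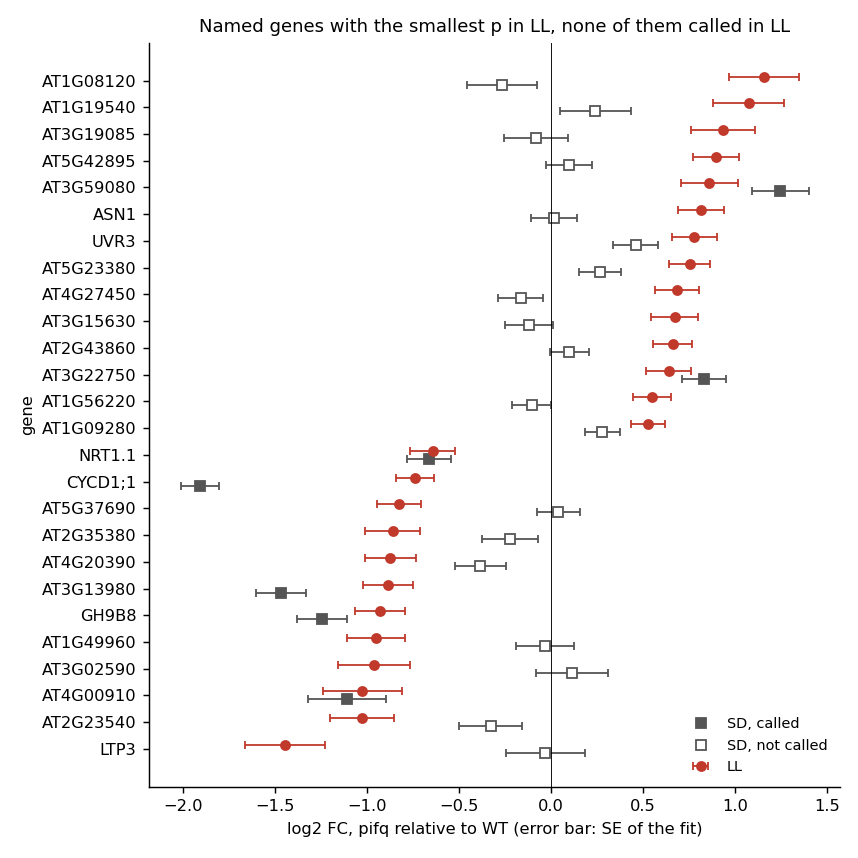
Log2 FC of pifq relative to WT for named genes with the smallest p in LL among those not called in LL, with the SE of the fit as error bars. Red dots are LL and squares are SD, filled where the gene was called in SD. CYCD1;1 lies at -0.74 in LL and -1.91 in SD, and ASN1 at 0.81 in LL and 0.02 in SD.

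Of the PIF family and its near relatives, 9 of 13 were measured, and in LL 3 were called lower (0.00783% of all probe sets) and none higher. In SD 5 were called lower and 2 higher (0.843% and 0.598% of all probe sets). The mutated genes PIF1, PIF3 and PIF5 are the 3 lower calls in LL and are among the 5 in SD. They are mutated by the design, so these counts cannot be read against the shares. The other pathway lists were also measured only in part, from 9 of 38 light harvesting genes to 17 of 21 shade genes. Most gene list members are named here only through a table of genes that the study called, in part on the WT LL arrays. Their counts and medians in SD and in LL, and the contrast of SD with LL, are not independent of that choice. The list counts therefore cannot be read against the shares of all probe sets given beside them. HFR1 (AT1G02340), an atypical bHLH protein that binds PIFs and limits their action, had log2 signals of 6.82, 6.37 and 6.85 in WT LL and of 5.96, 5.80 and 5.42 in pifq LL. For HFR1 the log2 FC was -0.96 ± 0.27 in LL (limma adjusted p = 0.642) and -2.78 in SD, where it was called. PIL1 (AT2G46970), a PIF-like bHLH protein and an early shade marker, had -0.61 ± 0.33 in LL (95% interval -1.34 to 0.12) and -4.03 in SD. PIF7 (-0.33) and PIF8 (-0.09), the members that were higher in pifq SD (1.00 and 0.87), were not called in LL, and the spread of PIF7 ran from 7.12 to 7.35 in WT LL and from 6.66 to 7.13 in pifq LL.

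None of 17 measured genes of shade-induced growth was called in LL. At an unadjusted p under 0.05, 2 were lower (HFR1 and XTH15, against 2.34% of all probe sets) and none higher. For 6 of the 17 every pifq LL array lay below every WT LL array, against 5.57% of all probe sets. For 1 every pifq LL array lay above, against 7.76%. The median log2 FC of the list in LL was -0.14. In SD 15 of the 17 were called lower and 1 higher, against 0.843% and 0.598% of all probe sets, with a median of -2.11. ST2A (AT5G07010), a sulfotransferase of hydroxyjasmonate, had -0.15 ± 0.16 in LL, HB-2 (AT4G16780, ATHB2), a homeodomain factor of shade avoidance, -0.16 ± 0.28, and CKX5 (AT1G75450), a cytokinin oxidase, -0.00 ± 0.11. The 95% intervals of ST2A (-0.51 to 0.21) and CKX5 (-0.26 to 0.25) cover differences of less than 1.5 fold, while that of HB-2 (-0.79 to 0.47) is wider.

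Auxin genes gave a similar picture, with none of 21 called in LL, 9 called lower in SD (0.843% of all probe sets), and medians of -0.07 and -0.83. IAA19 (AT3G15540), an Aux/IAA repressor induced by auxin, had 0.14 ± 0.17 in LL, and IAA29 (AT4G32280), of the same family, -0.55 ± 0.25. The small auxin up RNAs SAUR21 (-0.76 ± 0.24) and SAUR24 (-1.15 ± 0.49) were lower in LL at an unadjusted p under 0.05, and IAA4 (0.51 ± 0.21) was higher. SAUR24 had log2 signals of 6.94, 7.13 and 7.31 in WT LL and of 5.42, 6.12 and 6.39 in pifq LL, with no overlap and a wider spread in pifq. SAUR19, SAUR20, SAUR21 and SAUR24 are near-identical copies, so their probe sets may share signal and the single genes are uncertain.

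For genes of cell wall growth, none of 12 was called in LL, 4 were lower at an unadjusted p under 0.05 (2.34% of all probe sets) and none was higher, and 6 were called lower in SD (0.843% of all). For 5 of the 12 every pifq LL array lay below every WT LL array, against 5.57% of all probe sets. For 1 every pifq LL array lay above, against 7.76%. EXPB3 (AT4G28250), a beta-expansin, had 9.28, 9.26 and 9.27 in WT LL and 8.48, 8.71 and 8.43 in pifq LL. For EXPB3 the log2 FC was -0.73 ± 0.22 in LL (limma adjusted p = 0.65) and 0.36 in SD. XTH15 (AT4G14130), a xyloglucan endotransglucosylase/hydrolase, had -0.33 ± 0.12 in LL against -3.31 in SD, and EXPA8 (AT2G40610), an alpha-expansin, -0.36 ± 0.15 against -1.94. Of the hormone lists 9 of 18 gibberellin, 6 of 17 brassinosteroid, 4 of 11 ethylene and 4 of 12 jasmonate genes were measured. None of these was called in LL or had an unadjusted p under 0.05 there. The brassinosteroid list had 4 genes called lower in SD (0.843% of all probe sets) and a median of -1.36, against -0.03 in LL. None of the 6 has a platform name, so this count and these medians are not independent of the naming. PRE6 (AT1G26945, KIDARI) of this list, an atypical bHLH protein that promotes growth, had -0.00 ± 0.14 in LL and -1.62 in SD.

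PHYA (0.09), PHYB (0.08) and PHOT1 (-0.11), which encode light receptors, were not called in LL. In SD they were called lower (-0.99, -0.81 and -0.85), as were 0.843% of all probe sets. The measured photoreceptor genes have no platform name, so their SD calls are not independent of the naming. Only 4 of 14 photoreceptor and 8 of 16 light signalling genes were measured, and none had an unadjusted p under 0.05 in LL.

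Genes of chlorophyll synthesis had a median log2 FC of 0.11 in LL and 0.51 in SD. None of 15 was called in LL and 1 was higher at an unadjusted p under 0.05, whereas in SD 4 were called higher and 1 lower (0.598% and 0.843% of all probe sets). For 6 of the 15 every pifq LL array lay above every WT LL array, against 7.76% of all probe sets. HEME1 (AT3G14930), a uroporphyrinogen decarboxylase, had 9.54, 9.54 and 9.53 in WT LL and 9.93, 9.86 and 9.70 in pifq LL. The log2 FC of HEME1 was 0.29 ± 0.13 in LL (limma adjusted p = 0.784) and 0.67 in SD, where it was called. PORA (AT5G54190), the protochlorophyllide oxidoreductase that is used in the dark and declines in light, had 0.34 ± 0.29 in LL and -1.49 in SD.

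The log2 FC of CGA1 (AT4G26150), a GATA factor of chloroplast growth, was 0.41 ± 0.22 in LL and 1.13 in SD, where it was called. Light harvesting and photosystem genes stayed between -0.22 and 0.01 in LL over the 9 of 38 that were measured. Carotenoid genes had a median of 0.01 in LL over 8 genes. PSY, the phytoene synthase that starts the pathway, had 0.01 in LL and 0.68 in SD, where it was called. Violaxanthin de-epoxidase (VDE, AT1G08550) had 0.33 ± 0.13 in LL at an unadjusted p of 0.024.

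The list of dark and sugar starvation genes, which includes ASN1, had a median log2 FC of 0.41 in LL over 8 genes and of -0.04 in SD. Its values ran from 0.00 for GDH2 to 1.03 for BCAT-2, and 4 of 8 were higher at an unadjusted p under 0.05, against 3.90% of all probe sets. None was called in LL or in SD. BCAT-2 (AT1G10070), a branched-chain amino acid transaminase, had log2 signals of 6.96, 6.75 and 7.42 in WT LL and of 8.14, 8.02 and 8.06 in pifq LL, with no overlap. The log2 FC of BCAT-2 was 1.03 ± 0.22 (limma adjusted p = 0.436), and the difference of LL minus SD did not pass the test for BCAT-2 (adjusted p = 0.324) or ASN1 (adjusted p = 0.174). PPDK, pyruvate orthophosphate dikinase, had 0.55 ± 0.18 and MCCB, a methylcrotonyl-CoA carboxylase subunit of leucine breakdown, 0.51 ± 0.18. All 8 genes had a higher mean signal in WT SD than in WT LL. Only 3 of the 8 have a platform name, with a median of 0.51 in LL. The others are named through genes that the study called, in part on the same WT LL arrays. The count of 4 therefore cannot be read against the share of all probe sets.

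Starch genes other than QQS were not called in LL, and BAM3, a beta-amylase of starch breakdown, had 0.22 ± 0.12 in LL against 1.14 in SD. Their LL values lay between -0.25 for DPE2 and 0.23 for SS4, so the difference of QQS was not seen in the rest of its list. Of 11 genes of the circadian clock and photoperiod 2 were higher and 3 lower in LL at an unadjusted p under 0.05, against 3.90% and 2.34% of all probe sets, with none called. RVE2 (AT5G37260), a MYB-like factor of the CCA1 family, had 10.34, 10.57 and 10.36 in WT LL and 11.04, 10.80 and 10.74 in pifq LL. For RVE2 the log2 FC was 0.44 ± 0.12 (limma adjusted p = 0.568), and that of RVE1, which promotes auxin synthesis in the day, 0.28 ± 0.10. CDF5 (AT1G69570), a DOF factor, had -0.41 ± 0.12 in LL and -1.37 in SD, where it was called. LNK1, a light-regulated clock coactivator, had -0.52 ± 0.17 and GI, a clock and photoperiod protein, -0.31 ± 0.12, with no call in either regime.

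Of 5 cold and abscisic acid genes RD29B (-0.44 ± 0.13) and COR15A (-0.49 ± 0.17) were lower in LL at an unadjusted p under 0.05, as were 2.34% of all probe sets. No flavonoid gene of 14 had an unadjusted p under 0.05 in LL, in values from -0.41 for PAL1 to 0.37 for DFR. Few markers of cell types were measured, 9 of 40, and none was called in LL or had an unadjusted p under 0.05 there. They were BETA-TIP of seeds (0.13), EXPA7 and EXPA18 of root hairs (0.13 and -0.06), PDF1, FAMA and SPCH of the epidermis and stomata (-0.29, -0.10 and 0.13), CLV3 and ANT of the shoot (0.30 and -0.17), and VGD1 of pollen (0.00). In whole seedlings fewer cells of a type and less RNA per cell cannot be told apart.

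**Figure D3:**
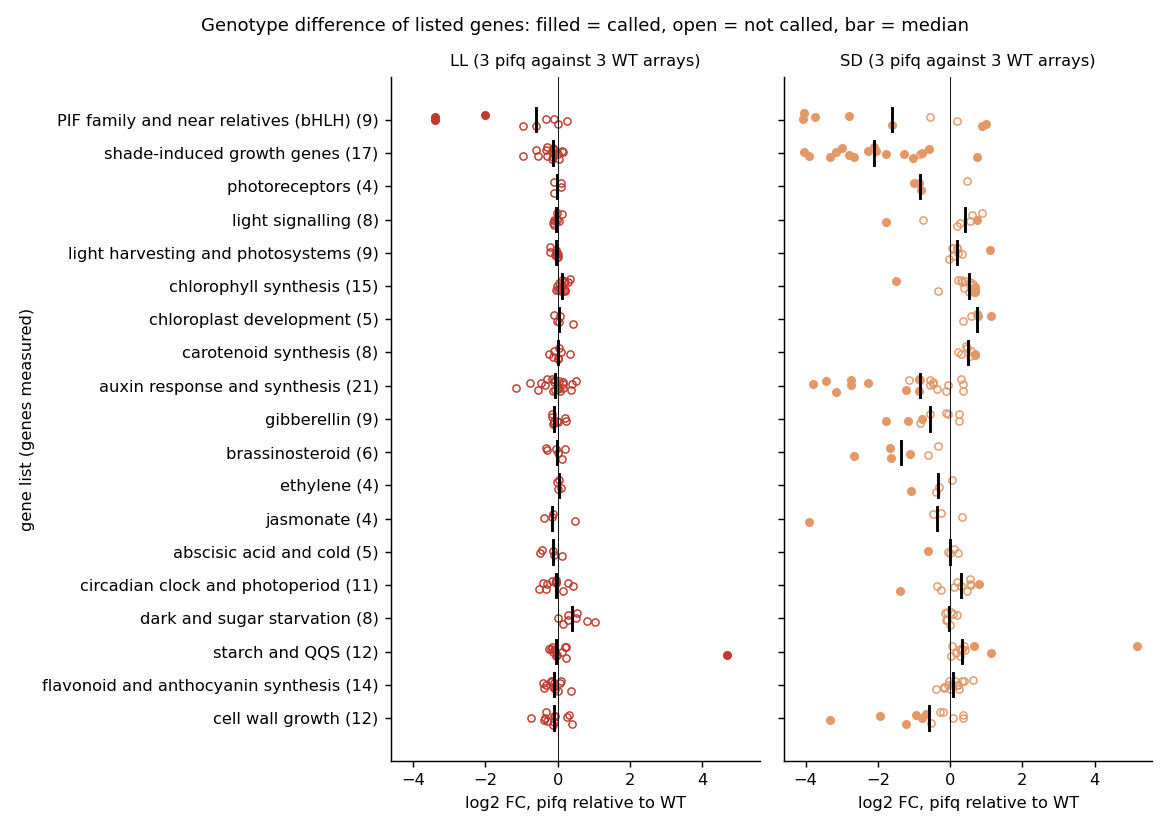
Log2 FC of pifq relative to WT for the measured members of each gene list, in LL (left) and SD (right), with 1 dot per gene, filled where called, and a black bar for the list median. In LL the calls are PIF1, PIF3, PIF5 and QQS, and the shade list has a median of -0.14 in LL and -2.11 in SD.

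The probe sets called in SD can be read again on the LL arrays, which had no part in choosing them other than through the shared estimate of the spread. The 323 called lower in pifq SD had a median log2 FC of -1.04 in SD, the value they were selected on, and of -0.15 in LL. Of these, 261 (80.8%) were lower in LL too, 72 (22.3%) at an unadjusted p under 0.05 against 2.34% of all probe sets, and 4 were higher at that p. The 229 called higher in pifq SD had a median of 0.79 in SD and of 0.09 in LL. Of these, 152 (66.4%) were higher in LL, 41 (17.9%) at an unadjusted p under 0.05 against 3.90% of all, and 7 were lower. Of the 552, PIF1 alone had a difference in LL that went beyond that in SD in the same direction.

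Over all 38310 probe sets the log2 FC of LL and SD correlated at 0.129 by Pearson's r and 0.147 by Spearman's rho, over probe sets, which are not independent and partly share values. Over the 552 called in SD r was 0.573, and 0.522 without the 7 called in LL. The 552 were chosen for large SD values, a choice that can itself raise r. These values therefore cannot be set against the r over all probe sets. Outside the 7, the SD-called named genes with the smallest p in LL, chosen here after their values were seen, were CYCD1;1, GH9B8, AT3G13980, AT3G59080 and NRT1.1. They also include LTP2, a lipid transfer protein, with -0.62 in LL and -1.66 in SD, and LAX3, an auxin influx carrier, with -0.51 and -0.64.

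**Figure D4:**
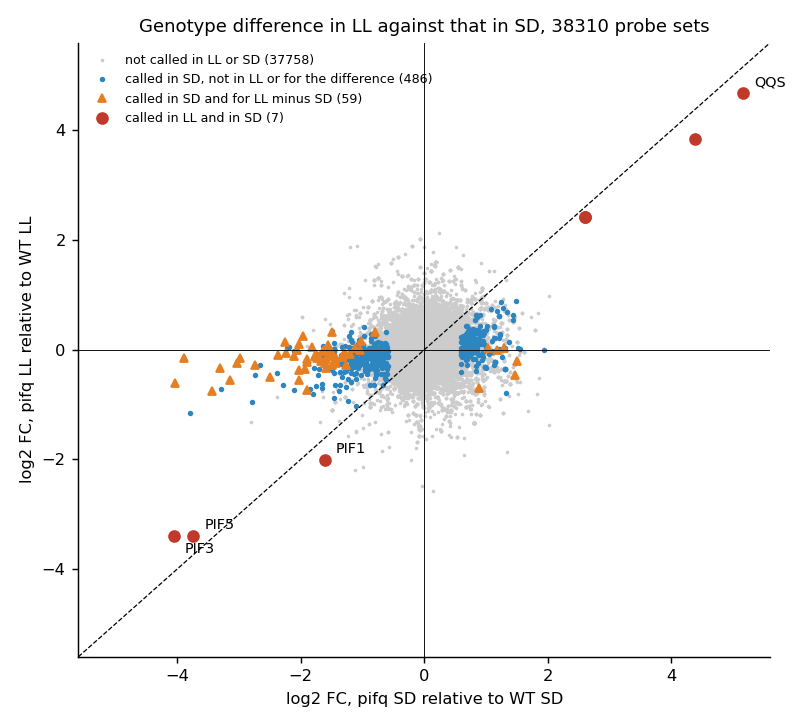
Log2 FC of pifq relative to WT in LL (y axis) against that in SD (x axis), with 1 point per probe set for 38310 probe sets and a dashed line where both are equal. The 7 probe sets called in LL lie near the dashed line, and the 59 called for a difference between regimes lie between -0.76 (SAUR21) and 0.33 (AFP3) in LL.

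The genotype difference in LL was set against that in SD by the interaction of genotype and light regime. It was called for 59 probe sets (0.154%), 53 with a higher value in LL than in SD (0.138%) and 6 with a lower one (0.0157%). With the replicate number as a block it gave 0 calls, although the numbers were not taken to pair the samples. In that limma fit 3126 probe sets had an unadjusted p under 0.05, against 2518 in the main fit. All 59 were called in SD, 53 of them lower and 6 higher in pifq, and all 59 had a larger size in SD than in LL. In LL 13 of the 59 had an unadjusted p under 0.05 and 15 had the opposite sign to SD.

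XTH15 had log2 signals of 8.91, 8.67 and 8.99 in WT LL and of 8.53, 8.51 and 8.53 in pifq LL. In SD it had 12.30, 12.33 and 12.27 in WT and 8.81, 9.17 and 8.97 in pifq. The WT SD arrays thus stood apart from the other 3 groups, and the difference of LL minus SD was 2.98 ± 0.17 (limma adjusted p = 0.000197). ST2A had 5.50, 5.26 and 5.56 in WT LL and 5.13, 5.50 and 5.23 in pifq LL, which overlap. Its signals in WT SD were 10.30, 9.82 and 9.86 and in pifq SD 6.003, 6.08 and 6.22, with a difference of 3.74 ± 0.23 (adjusted p = 0.000197). CKX5 had 5.76, 5.89 and 5.95 in WT LL and 5.77, 5.83 and 5.998 in pifq LL, with a difference of LL minus SD of 2.06 ± 0.16 (adjusted p = 0.00133).

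AFP3 (AT3G29575), a protein that binds the abscisic acid factor ABI5, had 6.14, 6.24 and 6.22 in WT LL and 6.51, 6.52 and 6.57 in pifq LL. It was therefore on opposite sides in the regimes, with a log2 FC of 0.33 ± 0.10 in LL (adjusted p = 0.65) and -1.49 ± 0.10 in SD (adjusted p = 9.01e-05). The proline-rich protein gene PRP2 had -0.17 in LL and -1.90 in SD. Of the gene lists, 9 of 17 shade genes, 4 of 21 auxin genes and 2 of 12 cell wall genes were called for the interaction. These counts are not independent of the naming, since all 59 calls are SD calls and 3 of the 17 shade genes and 10 of the 21 auxin genes have a platform name, so they cannot be read against the 0.154% of all probe sets. Besides XTH15, ST2A and CKX5, these are HB4, IAA19, FHL, HB-2, PIL1 and IAA29 of the shade list, SAUR19 and SAUR21 of the auxin list and EXPA8 of the cell wall list. CYCD1;1 was also called (1.17, adjusted p = 0.0211).

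The genes called in the other direction were all higher in pifq SD, and none had a log2 FC above 0.03 in LL. AT3G44970, a cytochrome P450 family gene, had 10.09, 10.26 and 9.90 in WT LL and 9.93, 9.87 and 9.84 in pifq LL, with -0.21 ± 0.12 in LL and 1.51 ± 0.12 in SD. FRO6 (AT5G49730), a ferric reductase of green tissue, had -0.46 in LL and 1.47 in SD, and FADA (AT4G27030, FAD4), a fatty acid desaturase of the plastid, 0.03 and 1.29. RPP5 (AT4G16950), a disease resistance protein of a family with similar copies, had 6.32, 6.46 and 6.68 in WT LL and 5.68, 5.79 and 5.87 in pifq LL. Its log2 FC was -0.71 ± 0.17 in LL (limma adjusted p = 0.454) and 0.89 in SD, where it was called. The count of 59 was 50 without pifq SD replicate 2 and between 6 and 26 without any other single array, but XTH15, ST2A, CKX5, AFP3, PRP2 and AT3G44970 were called in each of these fits.

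**Figure D5:**
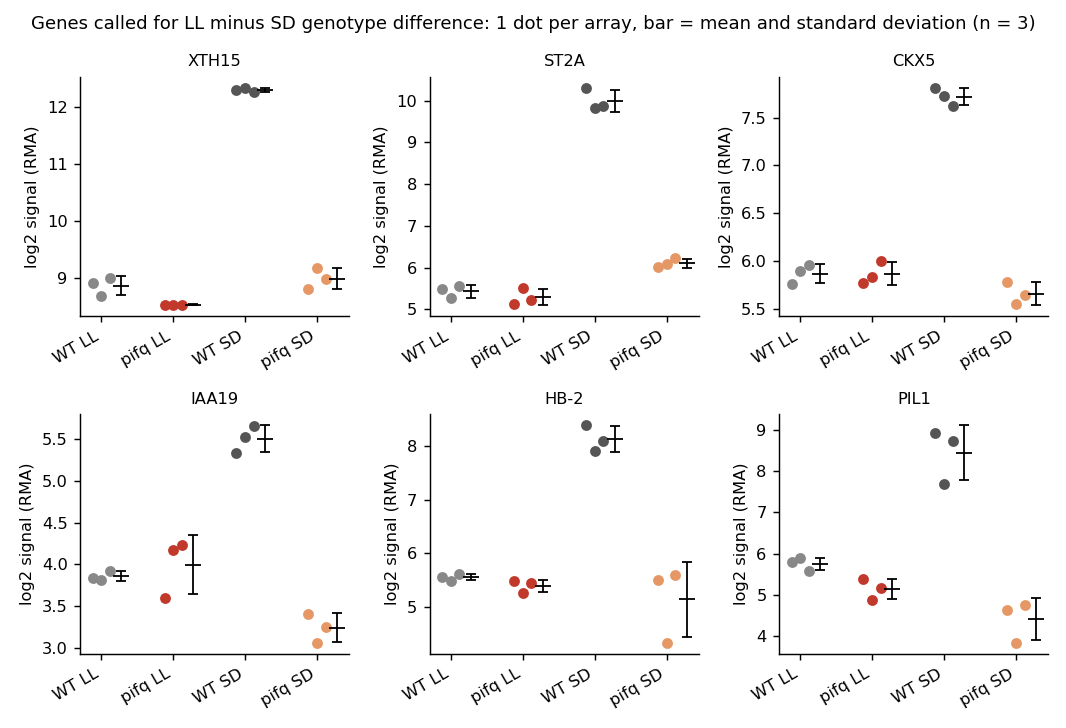
Log2 signal (RMA) by group of genes called for a genotype difference that differed between LL and SD, with 1 dot per array and a bar for the mean and standard deviation of 3 arrays. The y axes differ between panels and do not start at 0. In each panel the WT SD arrays lie above the other 3 groups, with XTH15 at 12.27 to 12.33 in WT SD.

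The genes next to the mutated loci were read by gene order, 25 protein-coding genes on each side. None of the measured neighbours of PIF1, PIF3, PIF4, PIF5 or QQS was called in LL. At an unadjusted p under 0.05 the counts were 2 of 34 for PIF1, 3 of 36 for PIF3, 4 of 30 for PIF4, 2 of 35 for PIF5 and 6 of 36 for QQS, against 6.24% of all probe sets. Near QQS ERD5 (AT3G30775), a proline dehydrogenase 5 genes away, had 0.59 in LL, and AT3G32030, 22 genes away, -0.71. Near PIF4 the pectin methylesterase gene ATPMEPCRD, 4 genes away, had -0.81 in LL and -1.80 in SD, where it was called. Over the chromosomes the share of named genes with an unadjusted p under 0.05 ran from 5.91% on chromosome 2 to 6.56% on chromosome 3.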

How the data were processed

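The authors hybridized RNA from whole seedlings, 3 samples for each of 4 groups, to AraGene ST arrays, and per the labels deposited log2 signals from RMA, a method of background correction, normalization across arrays and a summary value for each probe set. Their labelling protocol names a kit for 3' ends, and the labels and the methods name different media. The study called genes by an error-weighted analysis of variance, which needs other values than these. Here limma 3.58.1 (R 4.3.3) fitted a mean for each of the 4 groups to all 12 arrays, so that they share 1 estimate of the spread, over 38310 probe sets other than controls. Calls needed a p adjusted by Benjamini-Hochberg under 0.05 and a difference of at least 1.5 fold. An exact permutation test of 3 against 3 arrays cannot go below p = 0.1 (two-sided), so no such test was used. The p-values test a difference of group means against the spread between samples within groups, estimated over all 12 arrays and moderated by limma.

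Of the probe sets, 16714 had 1 gene name in the platform annotation, 1039 had a name only in a table of genes the study called, 759 had several names, 8 had names that disagreed and 19790 had none. A gene was read from its brightest probe set. The genes named are the mutated genes and QQS, up to 15 in each direction (the largest called, then those not called with the smallest p), the leading members of each list and 5 in each direction for the interaction of genotype and light regime, plus a few chosen after their values were seen. The gene lists, the rule and the comparison were chosen with earlier results of these data known. Neighbours were taken by gene order in the RefSeq table in place of a distance, since no build is given in the sources used here, and a planned count of promoter motifs was not run. The fit was tested on simulated data. Alternatives covered the normalization, low signals, the variance model, the arrays fitted, the fold, repeated probe sets, the replicate number as a block and each array left out.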

Additional observations from a re-analysis of the deposited data

Results flagged for a closer look

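The genotype difference differed between LL and SD, by the limma interaction of genotype and light regime, for 59 probe sets. This count ranged from 6 to 50 without single arrays and was 0 with the replicate number as a block. In the values that follow, a positive number is a log2 FC (pifq relative to WT) that was higher in LL than in SD. Among growth and shade genes it was 2.98 for XTH15, 3.74 for ST2A, 2.06 for CKX5, 2.40 for IAA19 and 2.60 for IAA29. It was 2.00 for HB4 and 2.83 for HB-2, homeodomain factors of shade avoidance, and 3.42 for PIL1. FHL, which carries phytochrome A into the nucleus, had 1.66. Among other growth genes it was 1.62 for PRE6, 2.45 for SAUR19, 2.67 for SAUR21, 1.58 for EXPA8, 1.72 for PRP2 and 1.17 for CYCD1;1. AFP3 had 1.82, with a log2 FC of 0.33 in LL, where it was not called, and of -1.49 in SD. It is 1 of 15 among the 59 whose log2 FC had opposite signs in LL and SD.

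The difference ran the other way for AT3G44970 (-1.71), FRO6 (-1.92), FADA (-1.26), AT4G12830 (-1.18) and RPP5 (-1.59). No group has more than 3 arrays, so no test for a single array far from the others of its group was run.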

How the results depend on the processing

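None of the named genes followed across the alternatives changed direction. The 7 LL calls were all called after median centring and quantile normalization, under each filter, under the trend and without any single array. Testing fewer, brighter probe sets or modelling the variance by signal gave more calls. With a mean log2 signal of at least 4 there were 11 (6 lower, 8 named genes, interaction 147), and with at least 5 there were 19 (10 higher, 9 lower, 14 named genes, interaction 220). With the intensity trend and robust moderation there were 18 (10 higher, 8 lower, 11 also called in SD, 13 named genes, interaction 203). The genes added include ASN1, UVR3, CYCD1;1 and GH9B8. Without single arrays the LL calls ranged from 7 to 9 (higher from 4 to 5, lower from 3 to 4, named genes from 4 to 5). The interaction ranged from 6 to 50. The SD calls were 227 at 2 fold and 274, 279 and 314 without pifq SD replicate 3, WT SD replicate 1 and WT SD replicate 3.

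The deviations of same-numbered WT and pifq arrays from their group means correlated with r of 0.00375, -0.0438 and 0.0550 in LL and of 0.147, 0.349 and 0.0807 in SD. Not every pair passed 0.1, so the numbers were not taken to pair the samples, and in SD the arrays numbered 3 correlated less with each other than WT SD replicate 3 did with pifq SD replicate 1 (0.109). With the replicate number as a block 5 probe sets were called in LL, 1 of them lower, with 2 among the named genes and 2 on the lists. PIF1 (adjusted p = 0.168) and PIF5 (adjusted p = 0.0809) were not among them. In that limma fit 298 were called in SD, and the interaction gave 0 calls with 3126 probe sets at an unadjusted p under 0.05. A block over the 6 LL arrays alone, chosen after seeing the data, gave 0 calls in either direction with 2629 at that p. Without a block those 6 arrays gave 6 calls, without PIF1 (adjusted p = 0.161). The cause of these changes was not tested.

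The limits are the 3 arrays per group, the median SE of 0.206 on the log2 scale, the single mutant line, whole seedlings and 1 time point. About 49.5% of probe sets had a mean log2 signal under 5. The 19790 probe sets without a name and PIF4 could not be described by gene.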
